A study of Mus musculus with 7 samples.

Results

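The translation initiation and elongation factor genes were taken as the genes whose symbol in the deposited tables begins with Eif1 to Eif6, Eef1 or Eef2. The choice rests on the name alone and used no measured value. It found 63 of 17689 genes, listed in 77 of 36733 rows, where a row is 1 transcription start site (TSS) and 11 of the 63 genes had more than 1. Of these genes, 50 were taken as genes of factors or factor subunits. The other 13 carry the prefix but act around the factors: 4 Argonaute genes under an older name (Eif2c1 to Eif2c4), 3 kinases that phosphorylate eIF2 (Eif2ak2, Eif2ak3 and Eif2ak4), 4 genes for eIF4E-binding proteins (Eif4ebp1 to Eif4ebp3 and Eif4enif1), the kinase of eEF2 (Eef2k) and Eif1ad, which has the fold of an initiation factor. Eef1e1 was kept with the elongation genes, and so among the 50, by its symbol, although it encodes a scaffold component of the aminoacyl-tRNA synthetase complex.

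Binding was measured by ChIP-seq in mouse E14 embryonic stem cells (ESCs) in 7 libraries, 1 per condition. Tip60 was measured with the Flag-M2 antibody in Tip60-H3F ESCs, whose endogenous Tip60 carries a histidine and Flag tag, upon GFP KD (the control knockdown) and upon Hdac6 KD. Hdac6 was measured with the same antibody in Hdac6-H3F ESCs upon GFP KD and in a library titled Tip60 KD, whose genotype field names Hdac6 KD instead; the title was followed, and every value of that library is given under this doubt. The Flag background came from untagged WT cells, for which no knockdown is given. Endogenous p400, the ATPase of the Tip60-p400 complex, was measured with its own antibody in cells labelled GFP KD and Hdac6 KD with no tag named, and no library of background was at hand for it. All knockdowns used lentiviral shRNAs, 1 hairpin per gene, for 72 hr. The ChIP reads do not tell how far Hdac6 or Tip60 was depleted. The questions were whether Hdac6 KD changes Tip60 and p400 binding at promoters, and whether Tip60 KD changes that of Hdac6.

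With 1 library per condition there is no spread between replicates, so no difference was tested and no p-value is given. The values are numbers of reads within 500 bp of the TSS, recovered from the deposited coverage, and reads per 1000000 normalizing reads (RPM). A difference was called when the RPM ratio reached 1.5 in either direction in genes with at least 10 reads summed over both libraries. Intervals of 95% are exact binomial intervals for the counting of reads only, and say nothing of how cultures vary. The libraries had 9226710 to 31375600 normalizing reads, and a member held a median of 13 to 34 reads against 9 to 22 for all genes, so that single genes are known only within wide intervals. An interval is narrower where there are more reads. Shares of intervals that leave out 1 are thus compared between members and all genes at unequal numbers of reads. Away from the promoter, 1500 to 2000 bp from the TSS, the mean over all genes was 0.491 to 0.601 RPM in the 7 libraries.

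Translation begins when the small ribosomal subunit, loaded by eIF2 with the initiator tRNA and held by eIF3, eIF1, eIF1A and eIF5, is brought to the capped end of an mRNA by the eIF4 proteins and scans to a start codon. eIF2B recharges eIF2 with GTP, and the eIF2 kinases block this step under stress, while the eIF4E-binding proteins hold back cap recognition. During elongation eEF1A delivers aminoacyl-tRNAs, its exchange factors restore it, and eEF2 moves the ribosome along. Most of these genes are transcribed in every growing cell, ESCs among them, from promoters rich in CG.

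Promoters that show the range among the members are printed below from the mm9 genome, each as the 150 bases before its TSS, with matches to the searched motifs in capitals. Eef2 (chr10:80639254-80639403, plus strand), Eef1a1 (chr9:78329532-78329681, minus strand) and Eif2s2 (chr2:154718643-154718792, minus strand) are shown because they were among the members with most Tip60 and p400 reads. Eif3c (chr7:133709881-133710030, minus strand) had the highest ratio of Tip60 over untagged among genes with at least 30 reads. Eif4ebp2 (chr10:60915418-60915567, minus strand) had the highest RPM of all members in any library. This was 3.25 RPM of Hdac6 in the library titled Tip60 KD, while its Tip60 level upon GFP KD was 0.890 RPM. Eif4b (chr15:101912257-101912406, plus strand) is the contrast, since its only row lies 8053 bp from the nearest annotated Eif4b start, and its p400 level was among the lowest of the set. By GENCODE vM1 the nearest annotated starts of Eef2 and Eif2s2 lie 28 and 29 bases from the row, so their printed runs do not end at an annotated start.
Eef2: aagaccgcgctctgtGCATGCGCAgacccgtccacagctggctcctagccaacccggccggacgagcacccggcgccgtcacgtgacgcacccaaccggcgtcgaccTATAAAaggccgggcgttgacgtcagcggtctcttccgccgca
Eef1a1: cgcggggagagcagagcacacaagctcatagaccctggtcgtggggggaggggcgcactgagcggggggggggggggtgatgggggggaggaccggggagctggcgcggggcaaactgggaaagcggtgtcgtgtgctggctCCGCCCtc
Eif2s2: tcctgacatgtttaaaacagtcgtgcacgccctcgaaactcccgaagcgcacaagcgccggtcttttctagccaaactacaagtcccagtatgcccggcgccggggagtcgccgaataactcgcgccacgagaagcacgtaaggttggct
Eif3c: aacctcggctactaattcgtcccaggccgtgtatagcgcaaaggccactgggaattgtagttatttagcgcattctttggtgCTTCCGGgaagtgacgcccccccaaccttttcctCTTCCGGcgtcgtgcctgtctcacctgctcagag
Eif4ebp2: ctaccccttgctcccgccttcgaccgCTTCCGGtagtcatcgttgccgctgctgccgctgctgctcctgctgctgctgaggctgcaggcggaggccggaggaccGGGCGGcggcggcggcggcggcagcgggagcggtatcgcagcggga
Eif4b: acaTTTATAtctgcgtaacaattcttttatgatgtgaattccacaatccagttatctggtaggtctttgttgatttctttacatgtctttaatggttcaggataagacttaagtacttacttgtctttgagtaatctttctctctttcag

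In the Eef2 run the capitals mark an NRF1 match and a TATA box. In Eef1a1 they mark a GC box on the other strand, and the Eif2s2 run holds no match. Eif3c has a pair of ETS cores, and Eif4ebp2 an ETS core and a GC box, while the Eif4b run ends in a pyrimidine stretch followed by ag, as splice acceptors do, and holds only a TATA match. Over the 1000 bp around the TSS the GC content of the members had a median of 60.04%, from 40.0% at Eif4b to 77.4% at Eif2c2, against 55.9% for all genes. The ratio of observed to expected CpG had a median of 0.818 in the members and 0.597 in all genes. Searched on both strands from −250 to 50 bp, the GC box GGGCGG stood in 50 of 63 members (79.4%, against 48.9% of all genes), the ETS core CCGGAAG in 19 (30.2% against 12.1%) and CCAAT in 18 (28.6% against 37.4%). TATAAA stood in 7 members (11.1% against 12.7%), the YY1 motif AAGATGGCG in 4 (6.35% against 2.34%) and the NRF1 motif TGCGCATGC in 2 (3.17% against 1.91%). A gene on the opposite strand started within 1000 bp upstream of 9 members (14.3% against 7.004%), at 96 bp from Eif3i (2510006D16Rik) and 114 bp from Eif2b1 (Gtf2h3) in the closest pairs. At such promoters reads of both genes fall in 1 window. The 19 members with an ETS core had a median of 0.890 RPM of Tip60 and 1.26 RPM of p400 upon GFP KD, against 0.937 and 1.36 RPM in the 44 members without it. The 50 members with a GC box had 0.961 and 1.34 RPM, against 0.890 and 1.11 RPM in the other 13.

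Promoters of the translation factor genes held more Tip60 and p400 reads than most genes. Upon GFP KD, Tip60 ranged from 0.187 RPM (Eif2ak3) to 2.34 RPM (Eif2s2) with a median of 0.937 RPM, against 0.609 RPM for all genes, and 23 of 63 members lay among the top 10% of genes, where 9.87% of all genes lay. p400 ranged from 0.237 RPM (Eif2s3y) to 2.81 RPM (Eif4a2) with a median of 1.34 RPM, against 0.869 RPM for all genes, and 19 members lay in the top class (background 9.24%). Hdac6 upon GFP KD had a median of 1.38 RPM in the members and 1.04 RPM in all genes, with 12 members in the top class (8.67%). The untagged library had 0.605 RPM in the members and 0.518 RPM in all genes, with 11 members in its top class (8.75%). Across the 63 members the Tip60 and p400 levels had a Spearman's rho of 0.813, whereas it was 0.357 between Tip60 and Hdac6, 0.492 between Hdac6 and p400 and 0.268 between Tip60 and untagged. Over all genes these were 0.654, 0.466, 0.6699 and 0.487. These describe genes that share libraries, depth and base composition. The Hdac6 level also went with GC content across members (rho = 0.543, and 0.719 over all genes), more than the Tip60 level did (0.0986, and 0.286 over all genes).

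**Figure D1:**
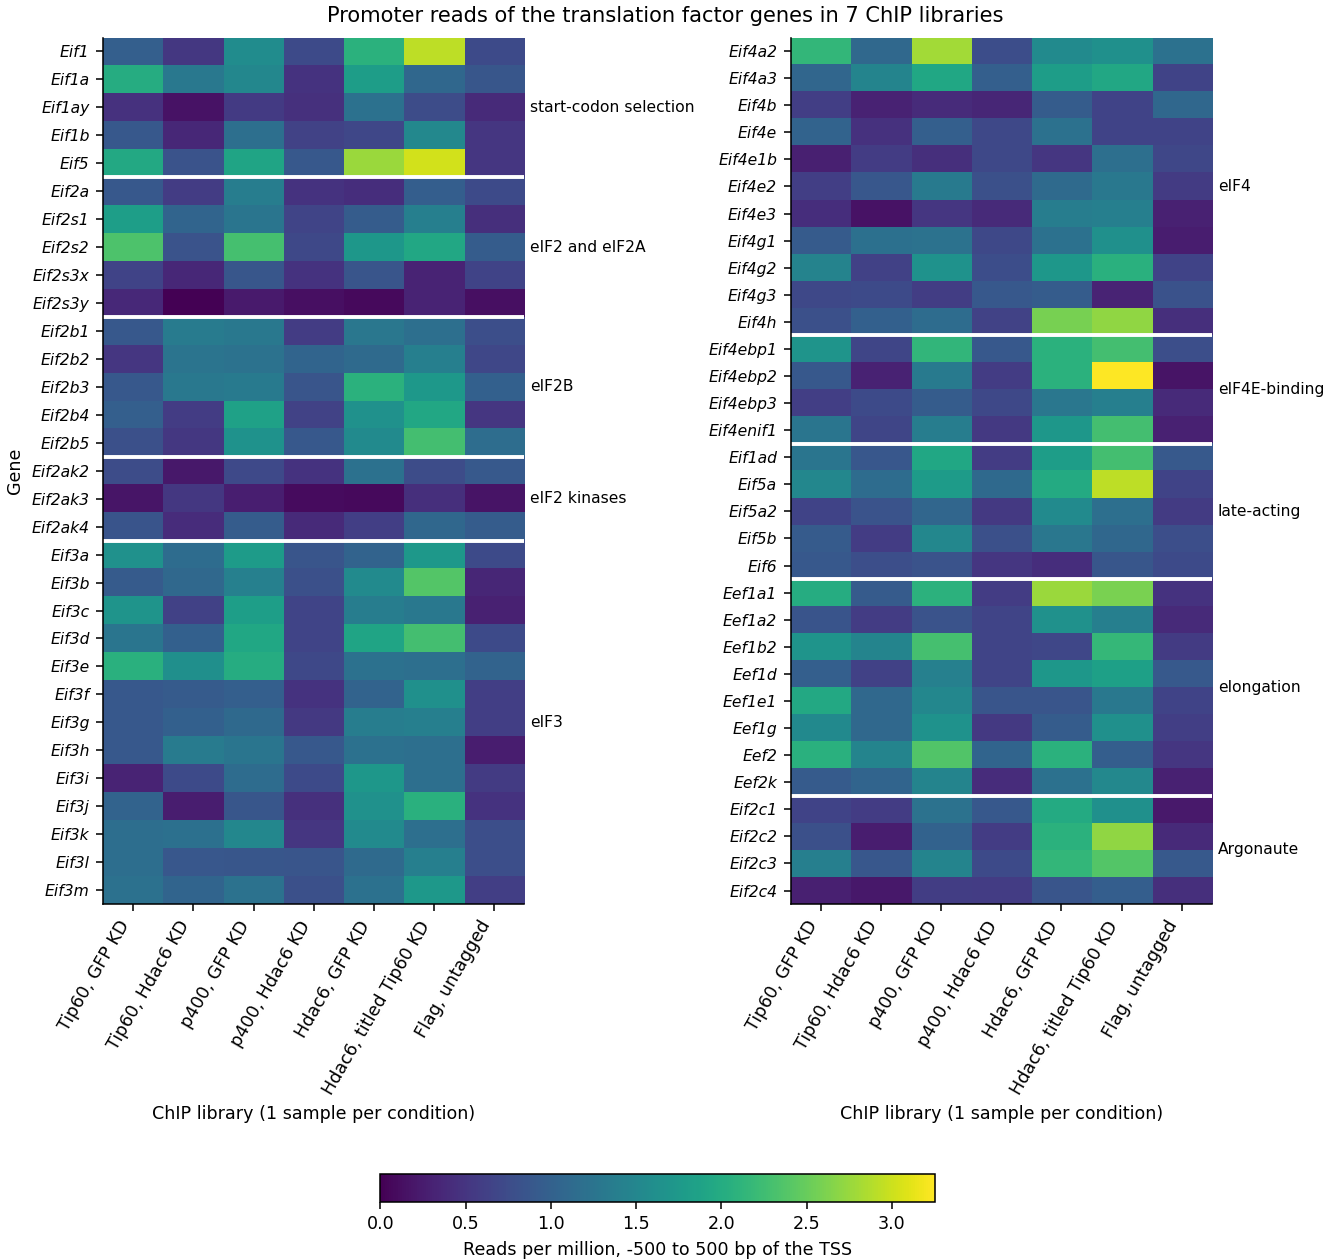
Promoter RPM (colour, from 0 to 3.25) of the 63 genes (rows, in their role groups) in the 7 libraries (columns, 1 sample each). The p400 column upon Hdac6 KD stays at or below 1.12 RPM for every gene, while that upon GFP KD reaches 2.81 RPM.

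Among the elongation genes, 5 of 8 lay in the top class for Tip60 and 4 for p400, where 9.87% and 9.24% of all genes lay. Eef2, which encodes the translocase, had 2.06 RPM of Tip60 upon GFP KD, 1.46 RPM of Tip60 upon Hdac6 KD, 2.37 and 1.05 RPM of p400, 2.07 RPM of Hdac6 upon GFP KD, 0.9754 RPM in the library titled Tip60 KD and 0.518 RPM in the untagged cells. Eef1a1, the main gene for the tRNA carrier eEF1A, had 2.01 and 0.939 RPM of Tip60, 2.09 and 0.574 RPM of p400, 2.76 and 2.60 RPM of Hdac6 and 0.475 RPM untagged, in the same order. Upon GFP KD both genes were high for all 3 proteins, and upon Hdac6 KD p400 was the lower at Eef1a1. Its paralog Eef1a2, which is used in muscle and neurons, had 0.844 RPM of Tip60, 0.8298 RPM of p400 and 1.64 RPM of Hdac6 upon GFP KD, lower than Eef1a1 in each. Eef1b2 and Eef1g, subunits of the exchange factor of eEF1A, had 1.69 and 1.55 RPM of Tip60 and 2.29 and 1.66 RPM of p400, whereas Eef1d, a further subunit, had 0.984 and 1.42 RPM. Eef1a1 has processed copies elsewhere in the genome, and since reads with several matches were placed at 1 of them at random, its values are uncertain.

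Of the start-codon group, Eif5, whose product activates GTP hydrolysis by eIF2, had 1.97 and 0.835 RPM of Tip60, 1.90 and 0.892 RPM of p400, 2.76 and 3.03 RPM of Hdac6 and 0.518 RPM untagged. Eif1a, a scanning factor, had 2.01 and 1.30 RPM of Tip60, 1.501 and 0.478 RPM of p400, 1.81 and 1.08 RPM of Hdac6 and 0.864 RPM untagged. In both genes Tip60 and p400 were at least 1.5-fold lower upon Hdac6 KD, but the Tip60 interval at Eif1a includes 1 (0.648, 0.379 to 1.08). The ratio of Hdac6 in the library titled Tip60 KD to that upon GFP KD was 1.10 (0.637 to 1.88) at Eif5 and 0.598 (0.251 to 1.33) at Eif1a, and both intervals include 1. Eif1ay, which the table places on the X chromosome at a row for which GENCODE vM1 has no start of that symbol, had 0.469 RPM of Tip60, the lowest of the group.

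Eif2s2, for the beta subunit of eIF2, had the highest Tip60 level of all members. It had 2.34 and 0.835 RPM of Tip60, 2.29 and 0.701 RPM of p400, 1.73 and 1.95 RPM of Hdac6 and 0.951 RPM untagged. Eif2s1, for the alpha subunit that the kinases phosphorylate, had 1.83 and 1.04 RPM of Tip60, 1.26 and 0.669 RPM of p400, 0.949 and 1.41 RPM of Hdac6 and 0.432 RPM untagged. The gamma subunit genes were lower, with 0.656 RPM of Tip60 and 0.869 RPM of p400 at Eif2s3x and 0.375 and 0.237 RPM at its Y-linked copy Eif2s3y. In Eif2s3y the counts were 8 reads of Tip60 upon GFP KD and 0 upon Hdac6 KD, a pair below the minimum of 10 reads.

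Of the 5 eIF2B genes, 0 lay in the top class for Tip60, where 9.87% of all genes lay. Eif2b4 and Eif2b5 lay in that for p400 (9.24% of all genes). Eif2b3 had 0.890 and 1.30 RPM of Tip60, 1.34 and 0.861 RPM of p400, 2.07 and 1.73 RPM of Hdac6 and 0.994 RPM untagged. Eif2b5, for the catalytic subunit, had 0.797 and 0.522 RPM of Tip60, 1.66 and 0.892 RPM of p400, 1.55 and 2.28 RPM of Hdac6 and 1.17 RPM untagged. Tip60 upon GFP KD was thus below the untagged value at both genes. The same held for the kinase genes Eif2ak4, the amino acid sensor, with 0.844 RPM of Tip60 against 0.951 RPM untagged, and Eif2ak2, activated by double-stranded RNA, with 0.750 against 0.907 RPM. Eif2ak3, the kinase of the endoplasmic reticulum, held 4 reads in each of these libraries. In the other libraries Eif2ak4 had 0.417 RPM of Tip60 upon Hdac6 KD, 0.948 and 0.382 RPM of p400 and 0.604 and 1.08 RPM of Hdac6, and Eif2ak2 had 0.209 RPM, 0.711 and 0.478 RPM and 1.21 and 0.759 RPM.

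The 13 eIF3 subunit genes had a median of 1.17 RPM of Tip60. Of these, 7 lay in the top class (Eif3e, Eif3c, Eif3a, Eif3d, Eif3m, Eif3k and Eif3l), where 9.87% of all genes lay. Eif3e had 2.06 and 1.62 RPM of Tip60, 2.02 and 0.701 RPM of p400, 1.21 and 1.19 RPM of Hdac6 and 1.04 RPM untagged. Eif3d, for a cap-binding subunit, had 1.26 and 0.992 RPM of Tip60, 1.94 and 0.669 RPM of p400, 1.90 and 2.28 RPM of Hdac6 and 0.734 RPM untagged. Eif3i was the lowest of the complex for Tip60, with 0.328 RPM. From Eif3i to Eif3e the subunits of this 1 complex thus differed widely in Tip60 level.

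Of the eIF4 genes, Eif4a2, for a helicase, had the highest p400 level of all members, 2.81 RPM upon GFP KD and 0.765 RPM upon Hdac6 KD, with 2.16 and 1.10 RPM of Tip60, 1.55 and 1.63 RPM of Hdac6 and 1.21 RPM untagged, the highest untagged value of the 63. Eif4a3, for the helicase of the exon junction complex, had 1.08 and 1.46 RPM of Tip60, 1.94 and 0.988 RPM of p400, 1.81 and 1.95 RPM of Hdac6 and 0.648 RPM untagged. The cap-binding gene Eif4e had 1.03 RPM of Tip60 upon GFP KD and 0.988 RPM of p400, whereas its oocyte paralog Eif4e1b had 0.281 and 0.435 RPM and Eif4e3 0.422 and 0.514 RPM. Among the eIF4E-binding genes, Eif4ebp1, for an inhibitor that mTOR phosphorylates, had 1.69 and 0.679 RPM of Tip60, 2.13 and 0.892 RPM of p400, 2.07 and 2.28 RPM of Hdac6 and 0.778 RPM untagged. Eif4enif1, for the transporter of eIF4E, had 1.26 and 0.679 RPM of Tip60, 1.38 and 0.542 RPM of p400, 1.73 and 2.28 RPM of Hdac6 and 0.302 RPM untagged. Both were lower upon Hdac6 KD for Tip60 and p400 alike, but the Tip60 interval at Eif4enif1 includes 1 (0.536, 0.254 to 1.08).

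In the late-acting group, Eif5a, whose hypusine-bearing product relieves stalled ribosomes, had 1.5 and 1.15 RPM of Tip60, 1.78 and 1.12 RPM of p400, 1.99 and 2.93 RPM of Hdac6 and 0.648 RPM untagged. Its paralog Eif5a2 had 0.656 RPM of Tip60 and 1.07 RPM of p400 upon GFP KD. Eif1ad had 1.26 and 0.887 RPM of Tip60, 1.94 and 0.574 RPM of p400, 1.81 and 2.28 RPM of Hdac6 and 0.907 RPM untagged, and its TSS lies 168 bp from that of Banf1. Of the Argonaute genes, Eif2c3 had 1.41 and 0.887 RPM of Tip60, 1.46 and 0.733 RPM of p400, 2.16 and 2.38 RPM of Hdac6 and 0.907 RPM untagged, and Eif2c1 had 0.656 and 0.574 RPM, 1.23 and 0.892 RPM, 1.99 and 1.63 RPM and 0.216 RPM. For Hdac6, 3 of 4 Argonaute genes lay in the top class, where 8.67% of all genes lay. These were Eif2c1, Eif2c2 and Eif2c3, with GC contents of 68.1%, 77.4% and 63.5%. The part of GC content in their Hdac6 level was not tested.

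Tip60 upon GFP KD was set against the untagged cells to separate binding from the background of the Flag antibody. Of 62 members tested, 38 (61.3%) were at least 1.5-fold higher, where the background over all genes was 32.2%, and 4 were at least 1.5-fold lower (background 13.6%). The median ratio was 1.72, against 1.18 for all genes, and the summed reads had a ratio of 1.76 (1.62 to 1.92). The counting interval lay above 1 in 25 members, against 9.86% of all genes. At Eif3c, for a core eIF3 subunit, 36 reads stood against 7, a ratio of 5.58 (2.45 to 14.9), at Eef1a1 43 against 11 (4.24, 2.15 to 9.12) and at Eif2s1 39 against 10 (4.23, 2.07 to 9.503). The lowest ratios in genes with at least 30 reads were 0.564 (0.265 to 1.15) at Eif4b, 0.683 (0.349 to 1.30) at Eif2b5 and 0.826 (0.403 to 1.66) at Eif2ak2, and their intervals include 1. In the window of −1000 to 1000 bp the ratio of Eif3c was 2.02. By role the summed ratio ran from 2.73 (2.16 to 3.47) in the elongation genes and 2.71 (1.84 to 4.06) in the eIF4E-binding genes through 2.10 (1.56 to 2.87) in eIF2 and eIF2A and 1.94 (1.61 to 2.34) in eIF3 to 0.983 (0.727 to 1.33) in eIF2B and 0.877 (0.556 to 1.37) in the eIF2 kinases.

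Hdac6 upon GFP KD, set against the same untagged library, was higher in the members about as often as in all genes. Of 61 members tested, 45 were at least 1.5-fold higher (73.8%, background 64.5%) and 3 at least 1.5-fold lower (background 8.58%), with a median ratio of 2.10 against 2.00 for all genes and 32 intervals above 1 (background 39.4%). The summed ratio was 2.28 (2.08 to 2.49). The highest ratios in genes with at least 30 reads were 5.99 (2.85 to 13.7) at Eif4h, a helper of the helicase, 5.81 (2.86 to 12.8) at Eef1a1 and 5.33 at both Eif5 (2.67 to 11.4) and the Argonaute gene Eif2c2 (2.39 to 13.0). The lowest were 0.879 (0.390 to 1.85) at Eif4b, 1.16 (0.497 to 2.56) at Eif4g3, whose only row lies 25877 bp from an annotated start, and 1.17 (0.557 to 2.35) at Eif3e. In the flanks the ratio of these libraries moved with GC content over all genes, from 0.157 in windows of 25 to 27.5% GC to 2.64 in windows of 60 to 62.5%. When each gene was divided by the flank ratio at its GC content, the summed ratio of the members was 0.989, 16 members were at least 1.5-fold higher and 13 lower, and 22.3% and 21.9% of all genes were. At Eif4h, Eef1a1 and Eif5 the corrected ratios were 2.27, 2.20 and 2.02. Their GC contents of 69.3%, 65.7% and 69.3% lie beyond the last bin, up to which the flank ratio was still rising. Whether that bin corrects them enough was not tested. The corrected sum of the members was thus about equal in both libraries. Of the members, 27 of 63 lie above 62.5% GC, where the correction takes the value of the last bin. The same correction left the Tip60 ratio at 1.72.

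Around the TSS, Tip60 upon GFP KD had its highest mean density in the members at 220 bp downstream, 2.48 times the flanks, and a lower maximum at −400 bp upstream. p400 was highest at 100 bp (2.56 times the flanks) and Hdac6 at 140 bp (2.60 times). Reads from −100 to 300 bp outnumbered those from −600 to −200 bp by 1.28-fold (1.14 to 1.44) for Tip60, 1.31-fold (1.19 to 1.44) for p400 and 1.48-fold (1.28 to 1.71) for Hdac6, against 0.964 (0.834 to 1.11) untagged. Over all genes these ratios were 1.03, 1.21, 1.49 and 0.891, so that the downstream side of Tip60 was the more marked in the members. Tip60 had more reads downstream in 34 members (54.0%, against 44.7% of all genes), more upstream in 20 (31.7% against 42.9%) and as many in 9. Upon Hdac6 KD the Tip60 ratio of downstream to upstream was 1.06 (0.919 to 1.22) and that of p400 1.00 (0.887 to 1.13), against 0.910 and 1.12 over all genes.

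**Figure D2:**
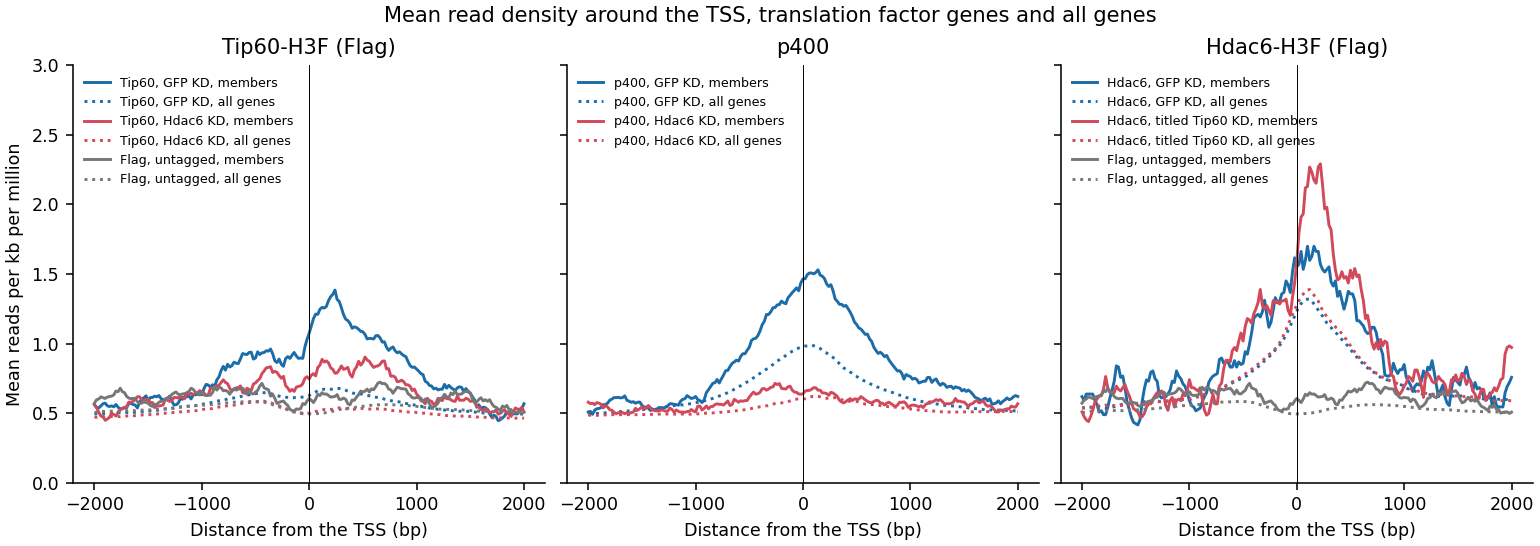
Mean RPM per kb (vertical axis) by distance from the TSS in bp (horizontal axis) for Tip60, p400 and Hdac6, with the 63 genes as solid and all 17689 genes as dotted lines and 1 library per line. In the members Tip60 and p400 stand above all genes upon GFP KD, and both are lower upon Hdac6 KD near the TSS and close to each other in the flanks.

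Upon Hdac6 KD, Tip60 promoter reads were lower at the translation factor genes. Of 62 members tested, 29 (46.8%) were at least 1.5-fold lower, against a background of 34.5%, and 6 at least 1.5-fold higher (background 13.9%). The summed ratio of Hdac6 KD to GFP KD was 0.737 (0.679 to 0.800) and the median 0.701, against 0.826 for all genes. The interval lay below 1 in 13 members (background 9.83% of the tested genes) and above 1 in 1, Eif2b2. The 13 include Eif2s3y, which lay below the minimum of 10 reads and is not among the 62 tested. Downstream of the TSS the reads of the members changed by −32.7%, upstream by −18.5% and in the flanks by −0.363%, against −20.9%, −10.4% and −5.66% over all genes. The lowest ratios in genes with at least 30 reads were those of Eif2s2, from 50 to 16 reads (0.356, 0.189 to 0.636), Eif3c, from 36 to 12 (0.371, 0.176 to 0.730), and Eif4ebp1, from 36 to 13 (0.402, 0.196 to 0.776). Within 250 bp of the TSS the ratio was 0.167 at Eif3c and 0.159 at Eif4ebp1. The highest were those of Eif2b2, from 11 to 24 reads (2.43, 1.15 to 5.50), and of Eif2b1 and Eif3h, each from 19 to 26 reads (1.52, 0.811 to 2.91).

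By role, all 5 start-codon genes and the 4 tested of eIF2 and eIF2A were at least 1.5-fold lower, where 34.5% of all genes were. Of these only Eif5 and Eif2s2 had an interval below 1. The summed ratios of both groups were 0.503 (0.366 to 0.686) and 0.463 (0.330 to 0.640). The eIF4E-binding genes had 0.539 (0.371 to 0.775), with 3 of 4 lower, and the elongation genes 0.689 (0.562 to 0.843), with 3 of 8 lower. The eIF3 genes had 0.849 (0.716 to 1.00), with 2 lower and 2 higher of 13, and the eIF4 genes 0.844 (0.685 to 1.04). eIF2B stood on the other side of 1 with 1.23 (0.910 to 1.66), its subunits being split between 2 lower (Eif2b4 and Eif2b5) and 2 higher (Eif2b1 and Eif2b2). Of these the interval left out 1 only at Eif2b2. Upon GFP KD the summed Tip60 reads of eIF2B were not above the untagged background (ratio 0.983, 0.727 to 1.33). These groups are small, and no difference between them was tested. In the Tip60 libraries the flank ratio was lower at higher GC content, 1.25 at 25 to 27.5%, 0.917 at 45 to 47.5%, 0.795 at 57.5 to 60% and 0.824 at 60 to 62.5%. Corrected for it, the summed ratio of the members was 0.891, 20 of 62 members were at least 1.5-fold lower and 12 higher, and the median was 0.850, where all genes had 25.4% lower, 20.7% higher and a median of 0.965. The ratios and counts by role given above are not corrected for GC content, and its part in the lower Tip60 reads was not tested.

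p400 promoter reads were lower upon Hdac6 KD at most genes, and more often so at the translation factor genes. The members also started higher, with a median of 1.34 RPM upon GFP KD against 0.869 RPM for all genes. Upon Hdac6 KD the medians were 0.669 and 0.606 RPM. The part of the starting level in the larger share was not tested. Of 63 members, 61 had a ratio below 1, where 77% of all genes did. Of the members, 49 (77.8%) were at least 1.5-fold lower against a background of 47.7%, while 2 were at least 1.5-fold higher (background 7.23%). The summed ratio was 0.497 (0.464 to 0.533) and the median 0.513, against 0.686 for all genes, and 37 intervals lay below 1 (background 27.7%) with 0 above. In the library upon Hdac6 KD, 4 members (6.35%) lay in the top class, close to the 8.81% of all genes. The reads changed by −55.0% downstream of the TSS, by −41.1% upstream and by −8.52% in the flanks, against −36.3%, −30.8% and −3.51% over all genes. The lowest ratios were those of Eif4a2, from 71 to 24 reads (0.273, 0.164 to 0.439), Eef1a1, from 53 to 18 (0.274, 0.151 to 0.475), and Eef2k, from 37 to 13 (0.283, 0.138 to 0.546). The highest were those of Eif4e1b, from 11 to 22 reads (1.61, 0.750 to 3.68), Eif4g3, from 15 to 28 (1.51, 0.777 to 3.03), and Eif3l, from 22 to 27 (0.9899, 0.543 to 1.82). Eif4e1b and Eif4g3 were low in p400 upon GFP KD, at the 17.4th and 29.4th percentile of all genes.

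By role the p400 ratio ran from 0.400 (0.331 to 0.482) in the elongation genes, with 7 of 8 at least 1.5-fold lower, and 0.406 (0.305 to 0.537) in eIF2 and eIF2A, with 5 of 5, to 0.644 (0.480 to 0.861) in the Argonaute genes. eIF3 had 0.499 (0.429 to 0.581), with 11 of 13 lower, eIF4 0.589 (0.497 to 0.698), with 6 of 11, and eIF2B 0.543 (0.430 to 0.685), with 4 of 5. Over all genes 47.7% were at least 1.5-fold lower. Corrected for GC content the ratios of Eif4e1b and Eif4g3 were 1.48 and 1.40, the summed ratio was 0.477 and 52 members were at least 1.5-fold lower, where 50.8% of all genes were.

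The Tip60 and the p400 comparison share no library. Tip60 and p400 were both at least 1.5-fold lower in 24 of 62 members (38.7%), against 18.1% of all genes. Only p400 was past this limit in 24 (38.7%, against 30.5% of all genes), only Tip60 in 5 (8.07% against 16.5%) and neither in 9 (14.5% against 34.9%). Both intervals lay below 1 at 9 genes, where 4.18% of all genes passed the same limits: Eef1a1, Eef1e1, Eif2s2, Eif3c, Eif4a2, Eif4ebp1, Eif4ebp2, Eif4g2 and Eif5. These joint counts and intervals are not corrected for GC content, whose part in them was not tested. The upper ends of the 9 Tip60 intervals ran from 0.636 at Eif2s2 to 0.962 at Eef1e1. In the Tip60 libraries the flank ratio was 0.824 at 60 to 62.5% GC. Eif4g2, for a scaffold of cap-independent initiation, went from 31 to 12 reads of Tip60 and from 42 to 24 of p400. Eef2k lay at 20 reads of Tip60 in both libraries, while its p400 reads were lower (at its row 717 bp downstream, which has the most reads, the p400 ratio was 0.836), and at Eif2b2 the Tip60 reads were higher while p400 stood at 31 and 33 reads.

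**Figure D3:**
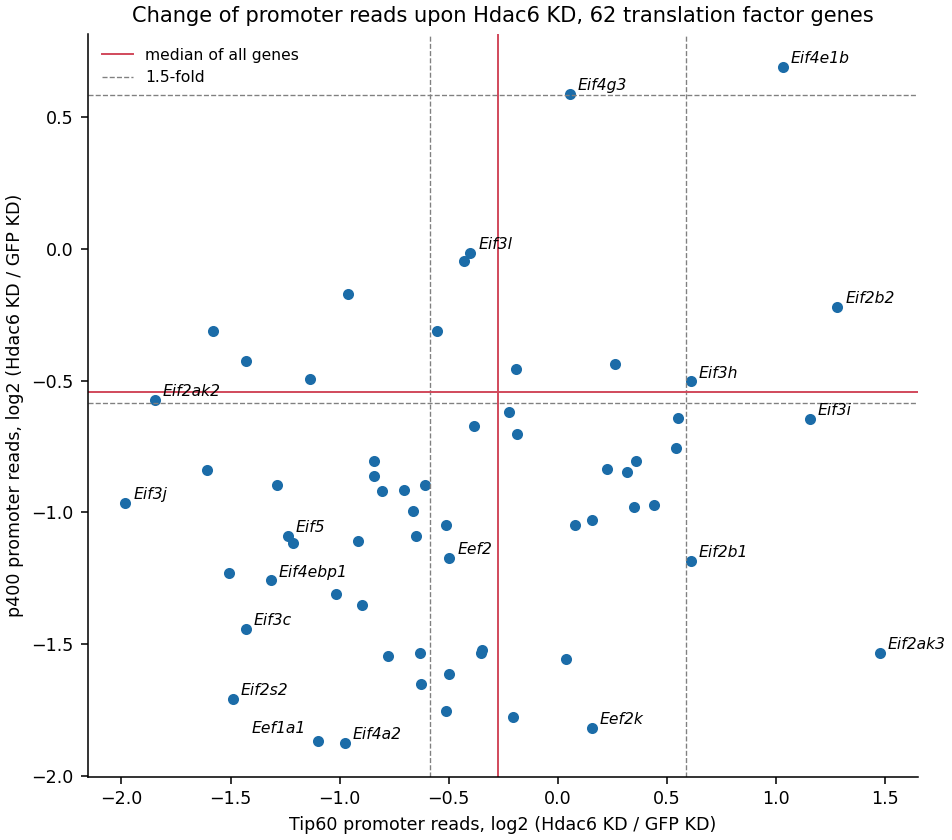
Change of promoter reads upon Hdac6 KD on a log2 scale, Tip60 on the horizontal and p400 on the vertical axis, for the 62 genes with enough reads in both (1 library per condition). Dashed lines mark 1.5-fold and red lines the median of all genes. The ratios are not corrected for GC content. The 24 genes in the lower left corner were lower for both proteins, and only Eif4e1b and Eif4g3 lie above 1.5-fold for p400.

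**Figure D4:**
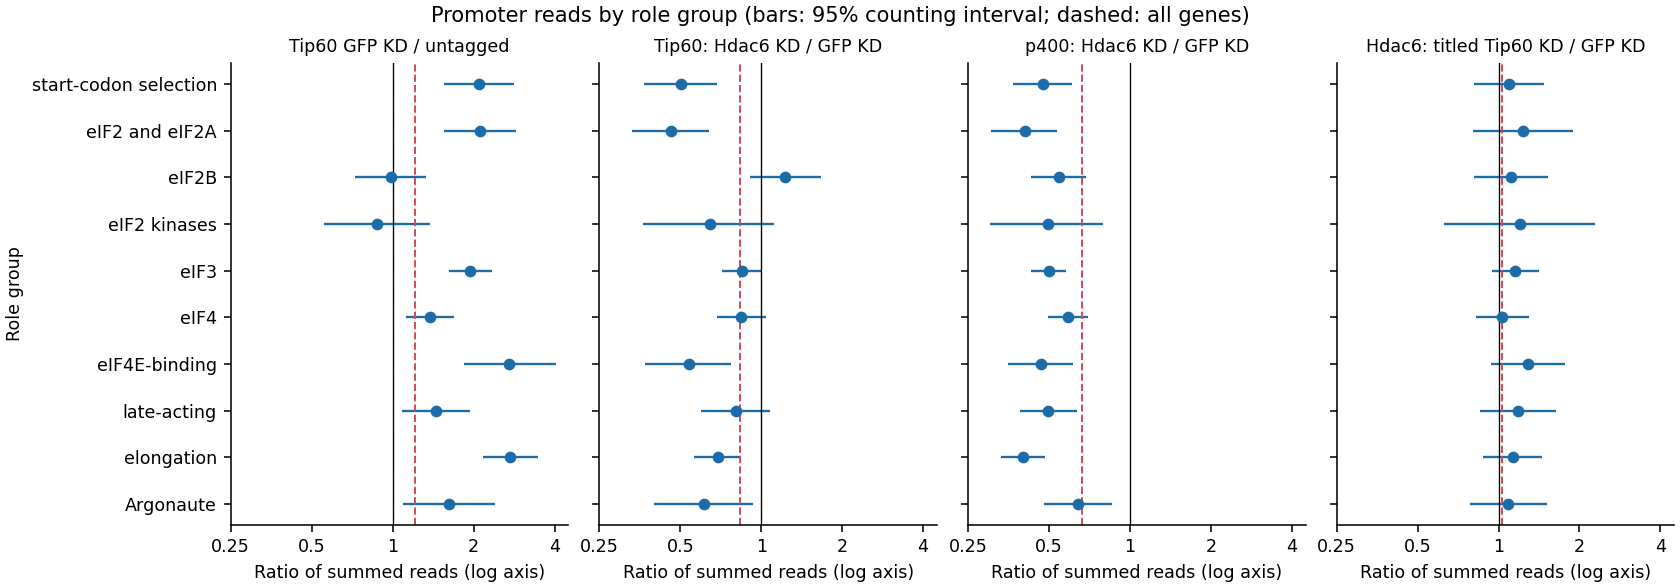
Ratio of summed promoter reads by role group on a log axis in 4 comparisons, with 95% counting intervals as bars and the ratio of all genes as a dashed line. For p400 every group lies below 1, for Tip60 upon Hdac6 KD eIF2B alone has a ratio above 1, and for Hdac6 every interval includes 1.

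Hdac6 promoter reads in the library titled Tip60 KD had a slightly higher sum over the members than upon GFP KD, and the interval left out 1 at a single gene. Of 61 members tested, 7 were at least 1.5-fold lower (background 15%) and 12 at least 1.5-fold higher (background 18.3%), with a median ratio of 1.13 against 1.03 for all genes and a summed ratio of 1.13 (1.03 to 1.24). The interval lay below 1 in 0 members (background 1.21%) and above 1 in 1 (background 2.09%), Eef1b2, which went from 8 to 20 reads (3.14, 1.32 to 8.24). In genes with at least 30 reads the ratio ran from 0.471 (0.193 to 1.05) at Eef2, 0.598 (0.251 to 1.33) at Eif1a and 0.691 (0.299 to 1.51) at Eif3i to 1.47 (0.814 to 2.69) at Eif5a, 1.54 (0.786 to 3.04) at Eif3b and 1.57 (0.887 to 2.81) at Eif4ebp2. These intervals all include 1. The reads of the members changed by 19.3% downstream of the TSS (ratio 1.19, 1.05 to 1.36), by 9.78% upstream and by 5.17% in the flanks, against 4.11%, 1.502% and −0.472% over all genes. At this depth neither a gain nor a loss of Hdac6 at most single promoters was detectable.

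Several genes are listed with more than 1 TSS. At Eif3e the row at its annotated start had 2.06 RPM of Tip60 and 2.02 RPM of p400 upon GFP KD, and the row 4007 bp further downstream 0.234 and 0.277 RPM, a 7.98-fold gap in the sum of Tip60 and p400, with GC contents of 53.9% and 35.6%. At Eif2ak4 the row 23729 bp away had 0.281 RPM of Tip60 against 0.844 RPM, and at Eif3l the row 8110 bp away had 0.234 against 1.17 RPM. The 3 rows of Eif5a lie within 711 bp and share reads; Tip60 was 1.5, 2.25 and 2.67 RPM and untagged 0.648, 0.173 and 0.216 RPM. The row that stands for the gene is therefore the one with the smallest ratio over untagged, 2.31, and the row with the most reads gave 13.0. At Eif5 the 3 rows within 930 bp had 1.97, 2.72 and 2.53 RPM of Tip60 upon GFP KD and 0.835, 0.731 and 0.783 RPM upon Hdac6 KD.

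The factor genes had lower median levels of Tip60 and p400 than the ribosomal protein and synthetase genes and higher ones than 25 other genes of translation. The 80 cytosolic ribosomal protein genes had a median of 1.55 RPM of Tip60 and 1.70 RPM of p400 upon GFP KD, and the 18 aminoacyl-tRNA synthetase genes 1.85 and 2.06 RPM, against 0.937 and 1.34 RPM in the factor genes and 0.844 and 1.11 RPM in the other genes. Hdac6 was at 1.38 RPM in both factor and ribosomal protein genes and 1.42 RPM in the synthetase genes, and untagged at 0.605, 0.691 and 0.778 RPM. Upon Hdac6 KD p400 was at least 1.5-fold lower in 74 of 80 ribosomal protein genes (92.5%, median ratio 0.382) and 17 of 18 synthetase genes (94.4%, 0.404). Tip60 was lower in 31 of 79 (39.2%, 0.719) and 11 of 18 (61.1%, 0.580). Of the 25 other genes (termination, recycling and mTOR signalling among them), p400 was lower in 15 (60%, 0.637), and Tip60 in 11 of 24 tested (45.8%, 0.769). Over all genes 47.7% were lower for p400 and 34.5% for Tip60. The median of p400 upon Hdac6 KD was 0.669 RPM in the factor genes and 0.717 RPM in the ribosomal protein genes. It was 0.765 RPM in both the synthetase and the other genes. The differences between these lists, and the part of their starting levels in them, were not tested.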

How the data were processed

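ChIP-seq reads of 7 samples of E14 ESCs were used. The authors collapsed single-end reads by sequence, mapped them to mm9 with bowtie (CASAVA 1.8.2 and Bowtie are named in the submitters' processing notes, with no Bowtie version), placed reads with several matches at random, extended them and deposited the coverage signal around each TSS, normalized, every 20 bp from −2000 to 2000 bp. The deposited coverage is a whole multiple of a step, the value of 1 read, which gave the normalizing reads. To count reads in a window, coverage was summed, expressed in steps, corrected for the length that a lone read covers (298 to 299 bp for Tip60, p400 and untagged, 148 to 149 bp for Hdac6) and rounded. The paper names a single extension length for all reads, which is near that of the Hdac6 files only.

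Each gene was represented by its RefSeq mRNA row of the lowest number; where 1 identifier had several rows, the most 5′ was taken, a choice made after the files were seen. The p400 tables, which hold the 22704 rows with a RefSeq identifier, were joined by identifier and file order. A library at 0 reads was set at 3 counts. Motifs and GC content came from the mm9 genome and GENCODE vM1, in which 39 of the 77 member rows lie at an annotated start and 65 within 100 bp of one of the same symbol. Profile maxima were read after a running mean over 100 bp. Named genes were the 2 with most reads in each role, the 3 lowest and highest ratios per comparison among genes with at least 30 reads, and the 3 genes whose starts differed most; others named in the text were chosen after their values were seen. The members and lists were chosen with earlier results of these data known. Scripts (Python 3.11.15, numpy 2.4.6, scipy 1.17.1, pandas 2.3.3, matplotlib 3.10.9) were tested on simulated data. The alternatives were other windows, equal flanks, GC correction in bins of 2.5 points, the row with the most reads, at least 30 reads, and the factors alone.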

Additional observations from a re-analysis of the deposited data

How the results depend on the processing

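Of 65 recomputed summed ratios and counts, 53 stayed within the counting interval of the reported ratio or within 1.5 times the reported count, 11 moved and 1 turned direction. GC correction took the summed ratio of Hdac6 GFP KD to untagged from 2.28 to 0.989 and its count of members at least 1.5-fold higher from 45 to 16, and the summed ratio of Tip60 upon Hdac6 KD from 0.737 to 0.891. In the window of −1000 to 1000 bp the summed ratio was 1.54 for Tip60 against untagged, 1.77 for Hdac6 against untagged and 0.567 for p400 upon Hdac6 KD, and 2 members were lower for Hdac6 in the library titled Tip60 KD, where the reported count is 7; the window of −250 to 250 bp gave 2.56 and equal flanks 1.93 for Hdac6 against untagged. With at least 30 reads fewer genes enter, and the counts were 25 of 32 higher for Hdac6 against untagged, 18 of 43 lower for Tip60 upon Hdac6 KD and 2 of 28 lower for Hdac6 in the library titled Tip60 KD. For single genes, 787 recomputed ratios stayed within their interval, 32 moved and 6 turned direction: Hdac6 against untagged under GC correction at Eif1a (0.794), Eif1ad (0.756), Eif2b3 (0.979), Eif2c3 (0.901) and Eif3d (0.979), and Tip60 upon Hdac6 KD in the window of −1000 to 1000 bp at Eif2ak2 (1.02). Other than GC correction and the number of genes or bases entered, the cause was not tested. With 1 library per condition no replicate could be left out, and a median of 13 to 34 reads per member and library limits every value of a single gene. No paired analysis was possible because each condition has 1 sample.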
